A study of Mus musculus with 8 samples.

Results

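Intestinal stem cell marker genes are genes whose RNA is used to recognise the dividing cells at the base of intestinal crypts. The 10 members followed here, Olfm4, Ascl2, Smoc2, Gkn3, Axin2, Cdca7, Prom1, Lrig1, Hopx and Rgmb, were chosen by gene symbol, and each matched 1 of the 32285 genes in the count matrices. Lgr5, the gene that defines the crypt base columnar stem cell, was kept apart as the yardstick. The study measured RNA in 8 mouse libraries. There were 2 single-cell libraries from small intestinal organoids of C57BL/6 origin at passage 1, 1 from organoids grown alone (control) and 1 from organoids grown in coculture with a partner that the labels do not name. The design text has both samples pooled for the single-cell run while each has its own count matrix, and how cells were assigned is not given in the sources used here. For each, 16 wells were pooled and 100000 epithelial cells were sorted. A further 2 single-cell libraries came from small and from large intestinal tissue, processed separately, of C57BL/6 mice and of Lgr5-eGFP-ires-CreERT2 mice, which carry a fluorescent reporter in the Lgr5 gene. In these, 50000 live cells were sorted together with an added 50000 LGR5+ cells and 20000 to 25000 CD31+ PDPN+ LYVE1+ lymphatic endothelial cells, so the share of Lgr5-positive cells does not stand for that in the tissue. The other 4 libraries were Visium sections (10 µm cryosections of C57BL/6 intestine on slides whose spots each collect RNA from a small region), as technical duplicates of small and of large intestine. With 1 library for each single-cell group and technical duplicates for the sections, no test between groups was possible and no p-value is given. Intervals in brackets are 95% intervals that cover counting error only.

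Crypt base columnar cells divide under Wnt signals that Lgr5, a receptor for R-spondins, strengthens, and their daughters become the absorptive and secretory cells of the epithelium. Several of the members belong to this Wnt programme: Ascl2 is a transcription factor that maintains stem cell identity and Axin2 is a feedback inhibitor switched on by Wnt. Others are secreted proteins (Olfm4, Gkn3, Smoc2), regulators of growth factor and BMP signals (Lrig1, Rgmb) or markers first used for wider or for slowly dividing crypt populations (Prom1, Hopx).

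The start regions of 4 members are shown because the tissue libraries separated them. Of these libraries, the small intestinal one gave Olfm4 and Gkn3 levels that could be measured and the large intestinal one did not, while Ascl2 and Axin2, the Wnt-linked members, were measured in both. Each line gives the 250 bases before the transcription start, 5′ to 3′ on the strand of the gene, from RefSeq on build GRCm38.p6. Capitals mark the letters TATAA, searched on both strands. The regions are chr14:80000052-80000301 (plus strand) for Olfm4, chr6:87388936-87389185 (minus strand) for Gkn3, chr7:142969265-142969514 (minus strand) for Ascl2 and chr11:108920099-108920348 (plus strand) for Axin2.
Olfm4: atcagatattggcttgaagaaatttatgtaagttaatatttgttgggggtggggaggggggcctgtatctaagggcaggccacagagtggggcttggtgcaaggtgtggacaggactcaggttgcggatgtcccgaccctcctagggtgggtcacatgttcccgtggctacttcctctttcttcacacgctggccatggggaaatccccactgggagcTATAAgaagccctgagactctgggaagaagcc
Gkn3: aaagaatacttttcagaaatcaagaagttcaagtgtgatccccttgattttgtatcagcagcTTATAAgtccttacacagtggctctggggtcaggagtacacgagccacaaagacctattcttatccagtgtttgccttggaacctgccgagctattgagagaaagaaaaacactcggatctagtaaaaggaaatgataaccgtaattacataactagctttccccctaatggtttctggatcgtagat
Ascl2: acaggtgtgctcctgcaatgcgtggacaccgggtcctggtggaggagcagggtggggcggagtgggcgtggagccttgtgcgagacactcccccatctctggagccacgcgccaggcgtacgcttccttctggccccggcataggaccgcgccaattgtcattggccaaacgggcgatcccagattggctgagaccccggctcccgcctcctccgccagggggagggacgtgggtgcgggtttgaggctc
Axin2: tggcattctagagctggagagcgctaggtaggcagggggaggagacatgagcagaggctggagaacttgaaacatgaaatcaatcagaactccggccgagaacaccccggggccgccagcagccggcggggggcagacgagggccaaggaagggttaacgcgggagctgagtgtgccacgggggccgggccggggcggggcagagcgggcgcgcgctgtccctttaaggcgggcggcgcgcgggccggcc
TATAA lay 32 bases before the start of Olfm4, and a TTATAA run, which matches on both strands, lay 188 bases before that of Gkn3. The windows of Ascl2 and Axin2 held no match. Among the members not shown, TATAA lay 29 bases before the start in 1 entry of Rgmb and 210 bases before it in another, and Rgmb was measured in both tissues. The 4 windows also differed in CpG pairs, with 4 in Olfm4, 5 in Gkn3, 19 in Ascl2 and 24 in Axin2, against a median of 6 over 32851 RefSeq start regions of the same length. An entry of Prom1, also measured in both tissues, held 3. RefSeq regions were found for 9 of the 10 members, all but Smoc2, in 13 entries. None of the 13 held, on either strand, CTTTGAA or CTTTGAT or CTTTGTA or CTTTGTT, letters bound by TCF/LEF factors. Nor did any hold the E-box letters CAGCTG. Of all regions, 14.8% held one of the TCF/LEF runs, 13.0% the E-box run and 22.8% TATAA.

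Deposited depth was between 46236011 and 142501907 unique molecular identifiers (UMIs, each a counted RNA molecule) for the single-cell libraries and between 24356162 and 43833127 for the sections. The cell filter left 538 cells of the control organoids, 1028 of the cocultured ones, 2695 of small intestine and 5882 of large intestine. In the small intestinal library 5497 of 8842 barcodes were over the limit of 20% mitochondrial UMIs, and the values below come from the remainder. The 2 tissue libraries shared 25 cell barcodes and the 2 organoid libraries 0. A cell was called Lgr5-positive if it held at least 1 UMI of Epcam, the epithelial adhesion molecule, and at least 1 of Lgr5, and "other" if it held Epcam and no Lgr5. Both groups are called epithelial below by Epcam alone, and they included cells of other types. By the classes described below, 4.01% of Epcam-positive cells in small intestine were plasma-like and 3.35% macrophage or monocyte-like. In large intestine 4.86% were plasma-like and 2.35% fibroblast-like. There were 316 Lgr5-positive and 1505 other cells in small intestine, 895 and 4121 in large intestine, 87 and 434 in control organoids and 58 and 946 in cocultured organoids. A level in CPM is how many of every 1000000 UMIs in the pooled cells came from the gene, and ratios are log2 ratios of CPM.

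In small intestinal tissue every member was higher in Lgr5-positive than in other Epcam-positive cells. All 10 were at least 1 log2 unit higher, where 7.88% of the 11367 measured genes were, and their median log2 ratio was 2.48 beside 0.03 over all measured genes. The ratios ran from 1.19 for Prom1 to 4.01 for Gkn3. The median depth was 23253 UMIs in Lgr5-positive and 24792 in other cells.

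Among the secreted members, Olfm4 (ENSMUSG00000022026), a glycoprotein of crypt base cells, stood at 3289 CPM in Lgr5-positive cells and 249 CPM in the others, a log2 ratio of 3.72 [3.69 to 3.75]. Gkn3 (ENSMUSG00000030048), a gastrokine-family protein, stood at 58.1 and 3.60 CPM, a log2 ratio of 4.01 [3.74 to 4.29]. Smoc2 (ENSMUSG00000023886), a matricellular calcium-binding protein, stood at 142 and 28.1 CPM, a log2 ratio of 2.34 [2.22 to 2.45]. Gkn3 thus had the widest ratio of the 10 and ranked 4 among all measured genes, with Olfm4 at rank 5. Its 3.60 CPM in Lgr5-negative cells lay under the 4.42 CPM found in cells with the leukocyte gene Ptprc and no Epcam, so its ratio and rank rest on a denominator at background level. Ranked by how well single cells were told apart the order changed. The area under the ROC curve, which is 1 when every Lgr5-positive cell exceeds every other cell, was 0.854 for Olfm4 and 0.843 for Smoc2, ranks 2 and 3 of all genes behind Slc12a2, an ion cotransporter, at 0.881. It was 0.711 for Gkn3, rank 149, and 46.2% of Lgr5-positive cells held a Gkn3 UMI. These areas used unthinned cells. With every cell thinned to 5000 UMIs the area was 0.842 for Olfm4, 0.705 for Smoc2, 0.715 for Cdca7 and 0.601 for Gkn3.

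Of the Wnt-linked members, Ascl2 (ENSMUSG00000009248) stood at 57.4 CPM in Lgr5-positive and 6.19 CPM in other cells, a log2 ratio of 3.21 [2.99 to 3.44]. Axin2 (ENSMUSG00000000142) stood at 125 and 23.1 CPM, a log2 ratio of 2.44 [2.31 to 2.56]. Both were higher in Lgr5-positive cells, and they differed in how many cells held them: 24.1% of Lgr5-positive cells and 2.53% of the others held an Ascl2 UMI once every cell was thinned to 5000 UMIs. For Axin2 these shares were 47.9% and 9.64%. Rgmb (ENSMUSG00000048027), a BMP co-receptor, stood at 103 and 18.03 CPM, a log2 ratio of 2.52 [2.38 to 2.66]. Lrig1 (ENSMUSG00000030029), which restrains EGF receptors, stood at 45.9 and 13.1 CPM, a log2 ratio of 1.81 [1.63 to 2.001].

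The remaining members were Cdca7, Hopx and Prom1, and the latter 2 had the lowest ratios of the 10. Cdca7 (ENSMUSG00000055612), a chromatin protein of dividing cells, stood at 157 CPM in Lgr5-positive and 25.7 CPM in other cells, a log2 ratio of 2.62 [2.50 to 2.73]. The level in other cells is close to the 22.1 CPM [15.8 to 30.1] in cells with a Ptprc UMI and no Epcam UMI. It is above the 6.08 CPM [2.78 to 11.5] in cells with a UMI of the endothelial gene Pecam1 and no Epcam. Whether the Cdca7 level of leukocytes is background or expression was not tested. Hopx (ENSMUSG00000059325), a homeodomain-only cofactor, stood at 143 and 55.9 CPM, a log2 ratio of 1.35 [1.25 to 1.45]. Prom1 (ENSMUSG00000029086), the membrane glycoprotein also called CD133, stood at 99.0 and 43.5 CPM, a log2 ratio of 1.19 [1.07 to 1.30]. Hopx and Prom1 were thus the members with the highest level left in Lgr5-negative cells relative to the Lgr5-positive ones. Read the other way, 77.6% of the thinned cells with a Gkn3 UMI and 69.8% of those with an Ascl2 UMI were Lgr5-positive, against 37.1% for Prom1 and 19.5% of all thinned epithelial cells.

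Large intestinal tissue gave the same direction for the 8 members that could be measured, with smaller ratios. At least 1 log2 unit separated the groups for 6 of the 8, where 3.37% of 13137 measured genes passed, and the median log2 ratio was 1.23 beside 0.07 over all measured genes. Median depth was 28495 UMIs in Lgr5-positive and 23199 in other cells. Ascl2 led, at 66.3 CPM in Lgr5-positive and 16.8 CPM in other cells, a log2 ratio of 1.98 [1.88 to 2.07]. Smoc2 followed, at 121 and 32.2 CPM, a log2 ratio of 1.91 [1.84 to 1.98]. Axin2 stood at 53.1 and 16.8 CPM, a log2 ratio of 1.66 [1.56 to 1.77]. These 3 were followed by Cdca7 (126 and 50.1 CPM, log2 ratio 1.33), Rgmb (71.2 and 32.7 CPM, 1.12) and Lrig1 (57.9 and 28.3 CPM, 1.03). Hopx, at 120 and 66.9 CPM, reached a log2 ratio of 0.84 [0.78 to 0.90], and Prom1, at 97.5 and 77.1 CPM, one of 0.34 [0.27 to 0.40]. Smoc2 again had a high area on unthinned cells, 0.828, rank 3 of all genes behind a top value of 0.847 for Clca3b, a member of the CLCA family. With every cell thinned to 5000 UMIs the area of Smoc2 was 0.660.

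Olfm4 and Gkn3 had no usable level in the large intestine. Olfm4 gave 8 UMIs in Lgr5-positive and 67 in other large intestinal cells, or 0.294 and 0.728 CPM, against 32160 UMIs in the Lgr5-positive small intestinal cells. Gkn3 gave 0 and 4 UMIs. The Lgr5-positive cells of the large intestine held 27255972 UMIs in all and those of the small intestine 9778355, so the low Olfm4 and Gkn3 counts were found in the deeper of the 2 sets. Large intestinal cells with no Lgr5 UMI had higher levels of 7 of the 8 measured members, a share to be read against the 66.9% of 13515 genes that were higher there: Ascl2 stood at 16.8 CPM there and at 6.19 CPM in Lgr5-negative small intestinal cells, and Lrig1 at 28.3 and 13.1 CPM. Axin2 went the other way, at 16.8 and 23.1 CPM. The libraries of the 2 tissues were sorted and sequenced separately, so tissue, library and sort cannot be told apart in these levels.

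**Figure D1:**
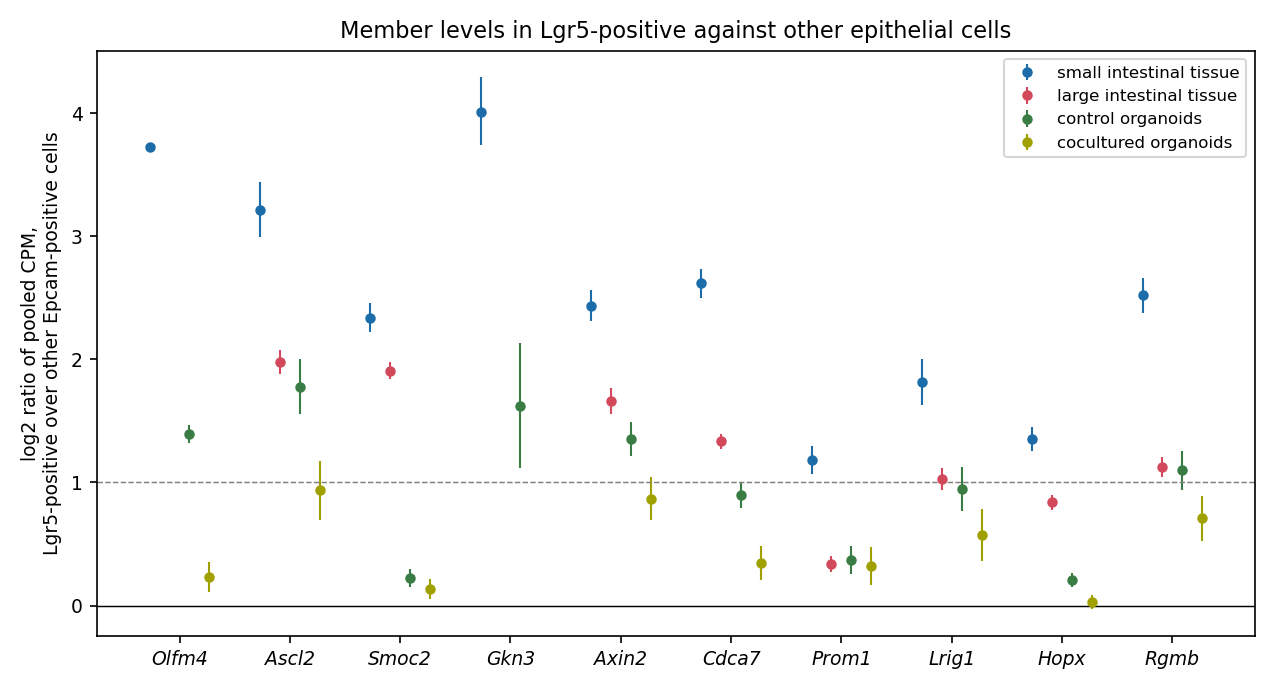
Log2 ratio of pooled CPM in Lgr5-positive over other Epcam-positive cells (y axis) for the 10 members (x axis) in the 4 single-cell libraries, with 95% counting intervals. The dashed line marks 1 log2 unit; all 10 small intestinal points lie above it, and members with fewer than 100 UMIs over both groups (Olfm4 and Gkn3 in large intestine, Gkn3 in cocultured organoids) are not drawn.

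Levels of other cell types' markers moved with the Lgr5 call, and these were recorded beside the result. In small intestine all 6 Paneth markers were higher in Lgr5-positive cells, with a summed level of 167659 CPM against 93227 CPM and none at 0, while the 6 goblet markers summed to 2622 against 18869 CPM and the 6 enterocyte markers to 518 against 4197 CPM. The 6 cycling markers were all higher too, at 1174 against 498 CPM summed. Without the cells of the Paneth-like class 10 of 10 members still passed, beside 12.7% of genes, and the log2 ratio of Olfm4 was 3.98. Among thinned cells with a UMI of the proliferation genes Mki67 or Top2a it was 3.001, and among those without one it was 4.03, and all 10 members passed in both, beside 3.81% and 4.26% of genes. In large intestine the 6 cycling markers summed to 1536 against 847 CPM, 5 of 6 tuft markers were higher (69.0 against 33.6 CPM summed) and the 6 fibroblast markers summed to 40.1 against 433 CPM. Among large intestinal cells without a Mki67 or Top2a UMI 7 of 8 members passed, with Hopx at 1.04, and among those with one 4 passed, beside 7.03% and 0.976% of genes. The part of tuft and fibroblast markers in the large intestinal ratios was not tested, except that without tuft-like cells 6 of 8 members and 3.44% of genes passed.

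In the tissue libraries, member levels also followed the number of Lgr5 UMIs in a cell. In small intestine all 10 members were higher at each step through 0, 1, 2, 3 to 5 and 6 or more Lgr5 UMIs, classes of 1505, 109, 58, 84 and 65 cells, as were 7.5% of 11367 measured genes. Olfm4 stood at 249, 1448, 2854, 4495 and 5328 CPM in these 5 classes. Gkn3 stood at 3.60, 18.3, 44.5, 75.2 and 119 CPM. Both were lowest in cells with 0 and highest in cells with 6 or more Lgr5 UMIs. Hopx was flatter above 0, at 55.9, 126, 131, 150 and 174 CPM, and its classes of 1 and 2 Lgr5 UMIs did not differ beyond counting error. In large intestine the step lay between 0 and 1 Lgr5 UMI. Ascl2 stood at 16.8, 60.4, 68.7, 72.2 and 68.8 CPM in classes of 4121, 389, 205, 253 and 48 cells, so its level changed little above 1 Lgr5 UMI. Cdca7 was as flat, at 50.1, 120, 129, 133 and 129 CPM, whereas Smoc2 went on from 104 CPM at 1 to 170 CPM at 6 or more and Rgmb from 65.0 to 99.4 CPM. Control organoids were mixed, in classes of 434, 30, 17, 24 and 16 cells. There Ascl2 rose at each step, from 9.82 to 49.3 CPM, while Olfm4 stood at 113, 416, 276, 299 and 177 CPM.

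**Figure D2:**
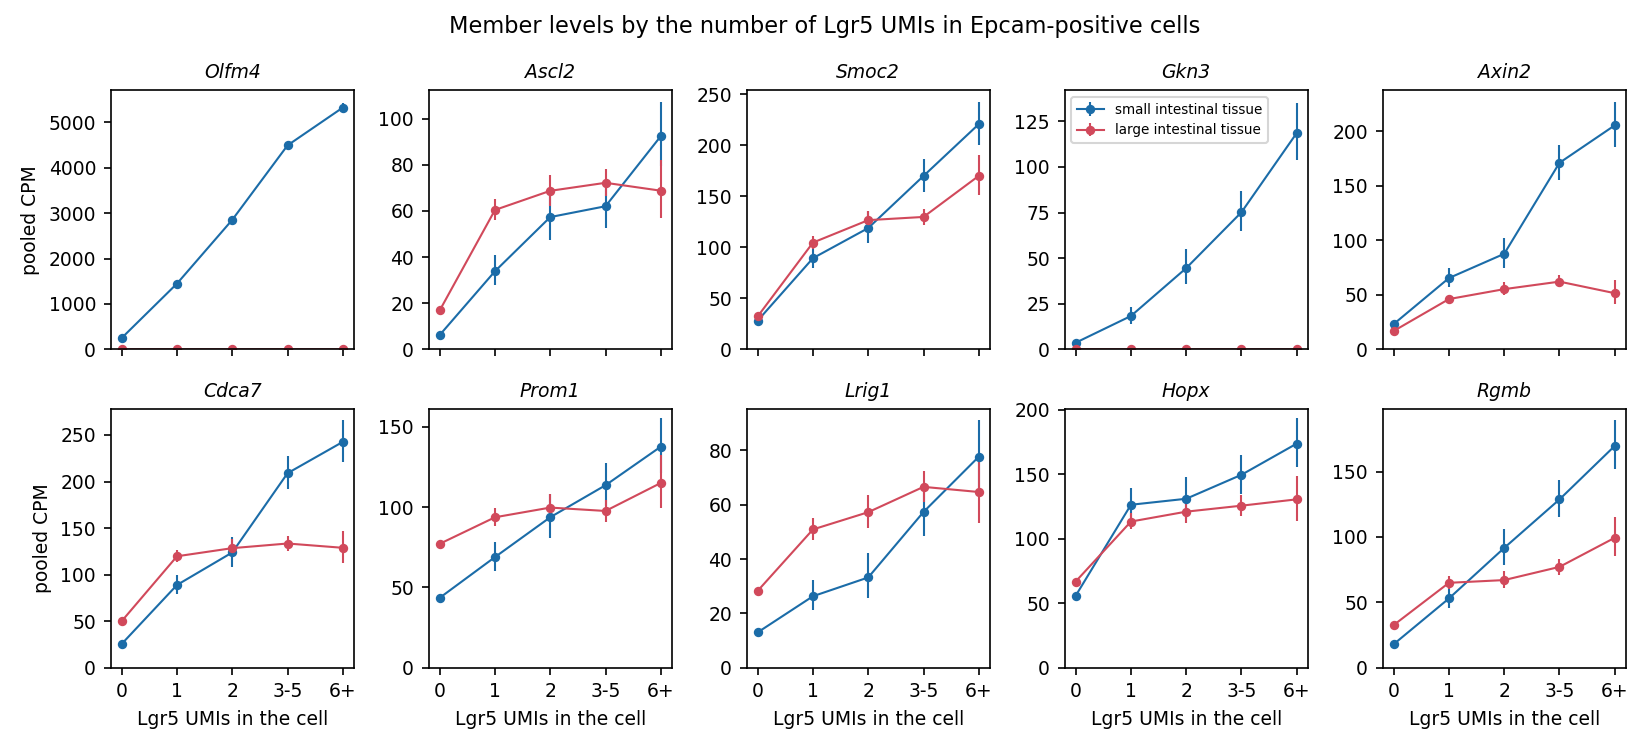
Pooled CPM of each member (y axes) in Epcam-positive cells grouped by their number of Lgr5 UMIs (x axes), with 95% counting intervals. Small intestinal levels climb over all 5 classes, as for Olfm4 from 249 to 5328 CPM, while large intestinal levels of Ascl2 and Cdca7 change little above 1 Lgr5 UMI.

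Single cells often carried several members at once. In small intestine, after thinning to 5000 UMIs, a median of 5 of the 10 members was seen in the 307 Lgr5-positive cells and of 1 in the 1265 others. At least 4 were seen in 64.2% [58.5 to 69.5] of the former and 8.06% [6.62 to 9.70] of the latter. In large intestine, where Olfm4 and Gkn3 were missing, the medians were 3 and 1, and at least 4 were seen in 29.7% [26.7 to 32.8] of 882 Lgr5-positive and 6.77% [5.94 to 7.68] of 3308 other cells.

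Part of the signal in Lgr5-negative cells can be compared with that in cells of other types. In small intestine 409 cells held a UMI of Ptprc, a leukocyte gene, and no Epcam, at a median of 3009 UMIs. At 2000 UMIs a cell, Olfm4 was seen in 11.7% [8.54 to 15.4] of these, in 16.2% of Lgr5-negative epithelial cells and in 71.3% of Lgr5-positive ones. Cdca7 was seen in 4.44%, 4.11% and 32.2% of the same groups, and Gkn3 in 1.67%, 0.696% and 13.7%. The Lgr5-negative shares of Cdca7 and Gkn3 were at or under those in leukocytes, and over these cells as a whole that of Gkn3 is not read as expression. For Cdca7, whether the share in leukocytes is background or expression was not tested. Among 308 cells with the endothelial gene Pecam1 and no Epcam the shares were lower, at 1.95% for Cdca7 and 0% for Gkn3, which allows up to 0.974%. Lgr5-negative cells were also uneven, since those in the stem-like class held Gkn3 at 60.3 CPM and the others at 2.58 CPM. Ascl2, at 0%, 1.11% and 12.1%, Smoc2, at 0.556%, 4.39% and 29.9%, and Axin2, at 0.556%, 4.53% and 23.2%, were above the leukocyte shares. For 360 leukocytes, the 0% of Ascl2 allows up to 0.833%. In large intestine, Ascl2 was seen in 0% of 221 thinned leukocytes (up to 1.36%), 3.13% of Lgr5-negative and 14.2% of Lgr5-positive cells.

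Clustering without the members and Lgr5 gave 19 classes of at least 20 cells in small intestine, of which the stem-like class (168 cells) had the highest Lgr5. It was named by Lgr5 and 5 other fixed stem markers. This class held the highest level of 7 members, where 4.52% of 12046 genes with at least 100 UMIs had their highest level, some of them genes the clustering used. Olfm4 stood at 6082 CPM there, before 1854 CPM in the cycling-like class and 364 CPM in the enteroendocrine-like class. Gkn3 stood at 115 CPM before 26.1 CPM in the cycling-like class. Cdca7 stood at 299 CPM before 119 CPM, and Axin2 at 201 before 97.4 CPM, in the same 2 classes. Ascl2 differed in its second class: 76.7 CPM in stem-like cells was followed by 53.3 CPM in tuft-like cells, the chemosensory cells of the epithelium, whose Olfm4 level was 57.7 CPM. Lrig1 stood at 68.5 CPM before 38.0 CPM in cycling-like cells, and Rgmb at 149 CPM before 62.9 CPM in fibroblast-like cells.

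The other 3 members had their highest level elsewhere. Hopx stood at 444 CPM in tuft-like and 323 CPM in enteroendocrine-like cells, above the 164 CPM of stem-like cells. Prom1 stood at 206 CPM in tuft-like cells and 163 CPM in stem-like ones, with intervals that do not overlap. Smoc2 stood at 289 CPM [225 to 366] in the 32 fibroblast-like cells and 225 CPM [208 to 244] in stem-like cells, which do not differ beyond counting error. Smoc2 and Rgmb thus had high levels in fibroblast-like as well as stem-like cells, while Olfm4 in its highest class outside the epithelium, macrophage or monocyte-like cells, stood at 148 CPM.

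Lgr5-positive cells were not all stem-like. Of the 316 in small intestine, 33.9% were in the stem-like, 33.9% in the cycling-like, 12.3% in the Paneth-like and 8.54% in the tuft-like class. Within the stem-like class, 107 cells with and 51 without a Lgr5 UMI could be set side by side, and only Gkn3 (log2 ratio 1.15 [0.67 to 1.66]) and Lrig1 (1.11 [0.49 to 1.77]) were 1 log2 unit apart, beside 1.14% of 3850 genes. Olfm4 stood at 6891 and 3670 CPM there, a log2 ratio of 0.91 [0.85 to 0.97]. For Ascl2 (0.20 [-0.28 to 0.69]) and Prom1 (0.29 [-0.04 to 0.63]) the interval held 0. The stem-like cells in which Lgr5 was not seen still stood far above Lgr5-negative cells of other classes: Olfm4 was 3670 against 188 CPM, Ascl2 69.1 against 5.06 CPM and Cdca7 240 against 21.8 CPM.

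In large intestine the class with the highest Lgr5 (305 cells, 65.6 CPM) met the marker rule for no cell type and is called here by Dlgap1, the gene with the highest ratio in it. Which class this was depended on the clustering: it was tuft-like at the lower resolution (52.4 CPM) and with the loose cell filter (50.4 CPM), and at the higher resolution a Dlgap1 class held the highest level of 3 members. In the clustering used here the Dlgap1 class held the highest level of 1 member (beside 2.03% of 13580 genes), Ascl2, at 74.2 CPM [68.1 to 80.7], which overlapped the 70.7 CPM [65.1 to 76.7] of the next class, led by Hbb-bs. The Hbb-bs class had the highest Axin2 (58.2 CPM), Cdca7 (151 CPM) and Lrig1 (53.9 CPM), the last 2 within counting error of the Dlgap1 class. Smoc2 was highest, at 121 CPM, in a class led by Gm50323. Prom1 stood at 222 CPM in a class led by Alpi, the alkaline phosphatase of absorptive cells, and at 96.7 CPM in the Dlgap1 class, rank 8 of 25. Hopx was highest in enteroendocrine-like (164 CPM) and tuft-like (157 CPM) cells, as in small intestine. Rgmb stood at 77.0 CPM [66.0 to 89.2] in fibroblast-like cells and 69.5 CPM [63.6 to 75.7] in the Dlgap1 class. Of the 895 Lgr5-positive cells 40.6% were cycling-like, 19.9% in the Dlgap1 class, 17.5% in the Hbb-bs class and 8.38% in the Gm50323 class. Between cells with and without a Lgr5 UMI inside the Dlgap1 class, 0 of 8 members reached 1 log2 unit, beside 0.0878% of 6832 genes, and the highest ratio was that of Axin2 (0.91).

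**Figure D3:**
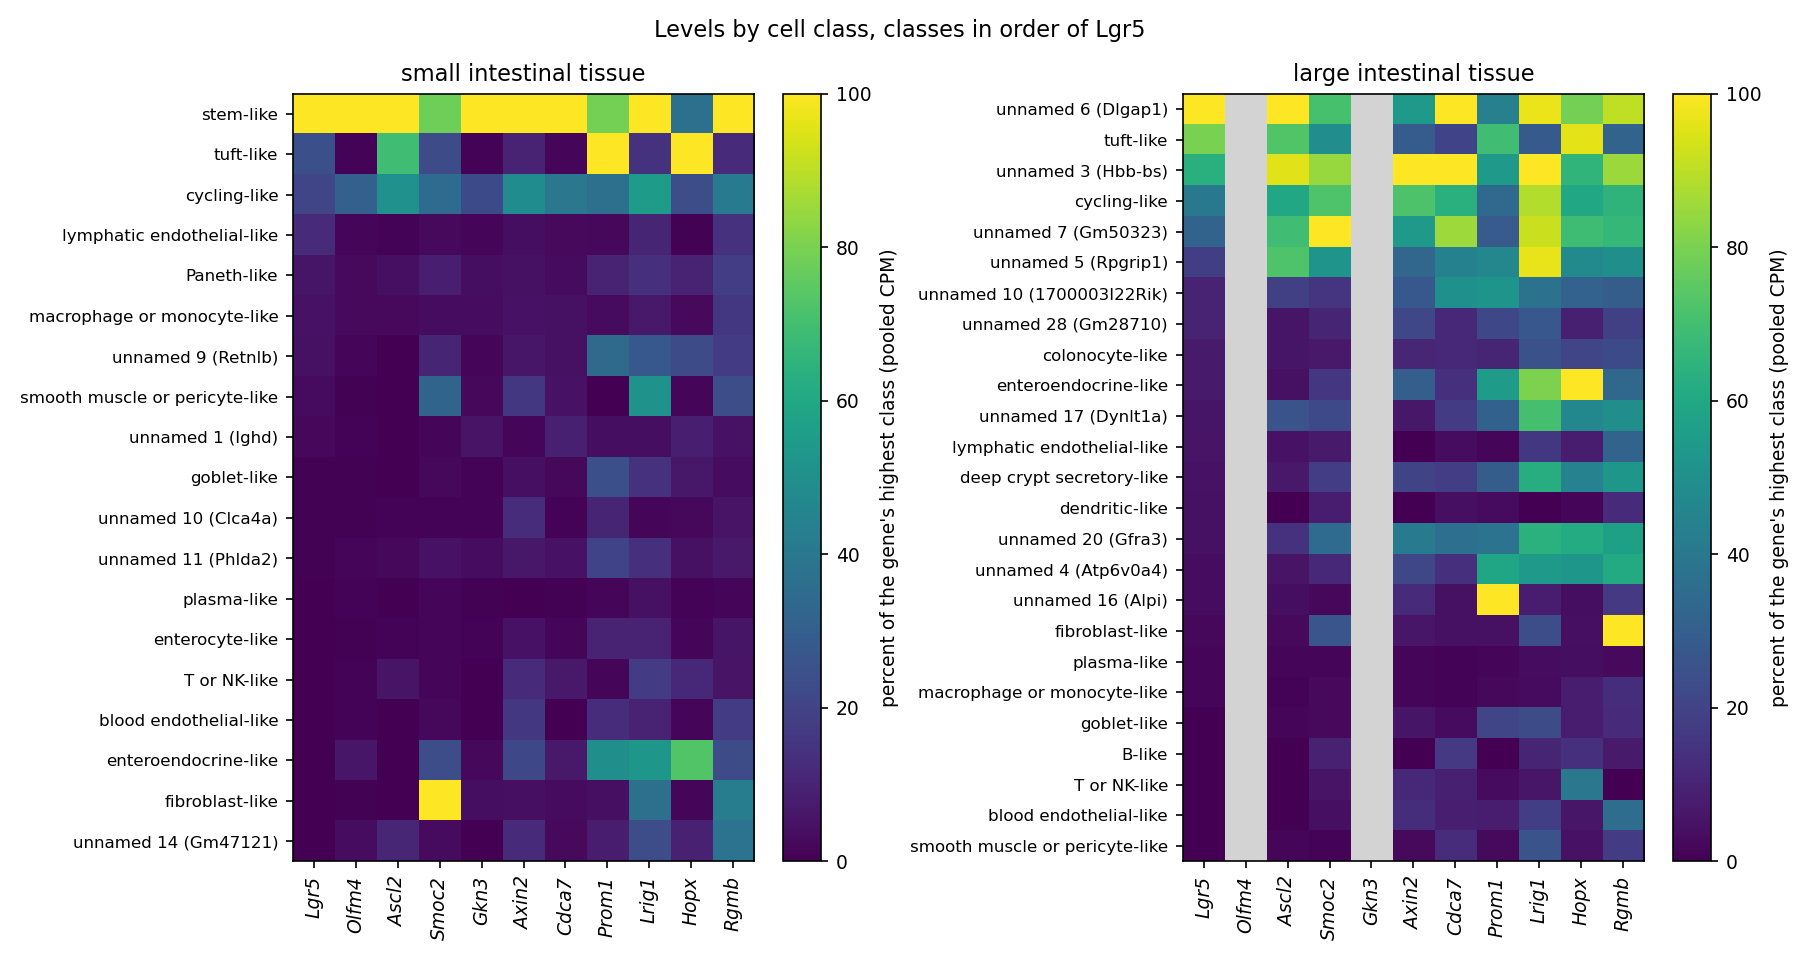
Level of each member and of Lgr5 (columns) in every class of at least 20 cells (rows, in order of Lgr5), as a percent of the gene's highest class, for the small (left) and large (right) intestinal library. In small intestine 7 members peak in the stem-like class with Lgr5 while Hopx and Prom1 peak in tuft-like cells; in large intestine the peaks are spread over several classes, and Olfm4 and Gkn3, which were not measured there, are grey.

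Across the 44 classes of both libraries, the gene closest to each member in log2(CPM + 1) was found by Pearson correlation, as a description of classes that share libraries and depth. For Gkn3 it was Olfm4 (r = 0.81), for Smoc2 the ephrin receptor Ephb2 (0.78) followed by Lrig1 (0.74), for Ascl2 the transcription factor Myb (0.85) and for Cdca7 the chaperonin Hspd1 (0.84). Olfm4 was closest to Defa24 and Defa30 (0.90 and 0.89), Paneth cell defensins that, like Olfm4, were found in the small and hardly in the large intestinal library. Prom1 was closest to Esrp2 (0.87), an epithelial splicing factor.

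A list of 25 other stem-linked genes, chosen beside the members, was read in the same contrast. In small intestine 19 of 24 measured were at least 1 log2 unit higher in Lgr5-positive cells, beside 7.88% of all measured genes, with a median of 1.87. The highest were Tnfrsf19 (4.07), a TNF receptor family member, Slc14a1 (3.28), Msi1 (2.60) and Slc12a2 (2.54), and the lowest Tert (0.03) and Lgr4 (0.31). In large intestine 13 of 23 passed, beside 3.37% of all measured genes, with a median of 1.19. There Slc12a2 stood at 0.90 and Fstl1 at -3.30. Fibroblast-like cells made up 2.35% of the Epcam-positive cells there, and their part in the Fstl1 ratio was not tested. Aqp4 stood at 0.05 in large intestine, beside 2.50 in small intestine. By area Aqp4 separated the cells in both, at 0.715 in large and 0.740 in small intestine. Of the 10 Wnt targets in the list, 8 of 9 measured passed in small and 7 of 9 in large intestine, beside the same shares of all genes. Leaving out members, the list, Lgr5, reporter features and unnamed gene models, the highest ratios in small intestine were those of Slc1a2 (4.53), Scn2b (3.46) and Zbtb16 (3.39). The ranks of members given above do count the unnamed gene models. In large intestine Sst led at 4.56, but 382 of its 385 UMIs in Lgr5-positive cells came from 1 cell, and was followed by Adamts16 (2.89), Dlgap1 (2.56), Rdh1 (2.49) and Kif26b (2.46).

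In control organoids the pooled ratios of all 10 members were smaller than in small intestinal tissue, and those of the 8 measured in large intestine were smaller than there except for Prom1 (0.37 and 0.34). At least 1 log2 unit was reached by 5 of 10, where 1.8% of 10313 measured genes did: Ascl2 (33.7 and 9.82 CPM, log2 ratio 1.78), Gkn3 (6.44 and 2.09 CPM, 1.62), Olfm4 (297 and 113 CPM, 1.39), Axin2 (76.5 and 29.96 CPM, 1.35) and Rgmb (1.10). Axin2 had the highest area under the ROC curve of all measured genes, 0.814, but with every cell thinned to 10000 UMIs its area was 0.619, under those of Cdca7 (0.649) and Olfm4 (0.638). The ratio of Gkn3 rests on few cells: 2 of the 87 Lgr5-positive cells held 50% or more of its 66 UMIs there, and its area was 0.582, beside a median of 0.583 over all measured genes. Smoc2 and Hopx, both widely present in organoid cells, stood at 0.22 and 0.21. In cocultured organoids 0 of the 9 measured members reached 1 log2 unit, where 0.917% of 11127 genes did, and the highest were Ascl2 (0.94) and Axin2 (0.87). Olfm4 stood at 79.7 CPM in Lgr5-positive and 67.8 CPM in other cocultured cells, a log2 ratio of 0.23 [0.11 to 0.35]. By cells the difference was wider, since 29.8% of Lgr5-positive and 14.2% of other cocultured cells held Olfm4 at 10000 UMIs a cell. The area of Olfm4 was 0.579 at that depth and 0.663 on unthinned cells. Lgr5-positive organoid cells were deeper, with medians of 98253 against 71896 UMIs in control and 98612 against 86564 UMIs in coculture. When Lgr5 was called after thinning to 10000 UMIs, between 0 and 4 members passed in control organoids over 4 random draws (beside 2.76%, 4.61%, 3.78% and 3.3% of genes for draws with 0, 4, 3 and 3 members), and 1 further draw left too few Lgr5-positive cells. The organoid count thus depends on the draw, which the small intestinal count of 10 did not over 5 draws. Cycling cells were unevenly spread over the call, and the counts changed when they were set apart, a split added here after the values were seen. A thinned UMI of Mki67 or Top2a was held by 66 of 87 Lgr5-positive and 150 of 362 other cells in control organoids, and by 33 of 57 and 412 of 862 in coculture. The 6 cycling markers were all higher in Lgr5-positive cells of both, at 1633 against 893 CPM summed in control and 1479 against 1064 CPM in coculture.

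Among control organoid cells with such a UMI, 1 of 9 measured members reached 1 log2 unit (beside 0.264% of all measured genes), Ascl2 at 1.26, while Olfm4 stood at 0.79, Axin2 at 0.71 and Rgmb at 0.69. Among those without one, 5 of 8 reached it, beside 5.56% of genes: Axin2 (2.49), Olfm4 (2.25), Lrig1 (2.08), Cdca7 (1.79) and Rgmb (1.43). In coculture 0 of 9 reached it among cells with such a UMI, beside 0.174% of genes, and the pooled ratio of Olfm4 turned to -0.19 [-0.32 to -0.06], while its area was 0.633 on unthinned counts. Among cocultured cells without one, 5 of 9 and 6.93% of genes did, the members being Ascl2 (2.52), Axin2 (1.87), Rgmb (1.74), Cdca7 (1.72) and Olfm4 (1.61). So 5 members passed in each organoid library among cells without these proliferation genes, where the Lgr5-positive cells numbered 21 in control and 24 in coculture; other draws gave 4 in coculture. Paneth markers also moved with the call, with 6 of 6 higher and 15407 against 2584 CPM summed in control organoids and 5 of 6 higher in coculture (17078 against 5959 CPM), and their part in the result was not tested.

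Between the 2 organoid libraries, taken over all kept cells, 9 of 10 members were lower in coculture and 1 was higher, with intervals that did not hold 0. At this depth many genes had such intervals, 43.3% of 11705 below 0 and 23.7% above it. The direction did not hold for all 9 in every set of cells: among cells without a Mki67 or Top2a UMI, over 5 random draws, Ascl2 ranged from -0.63 to 0.32, Smoc2 from -0.0066 to 0.093 and Lrig1 from -0.24 to 0.017. In 4 of those draws 1 of the 9 members measured there, in place of 2 of 10, was at least 1 log2 unit lower. At least 1 log2 unit lower were 2 of 10, Gkn3 and Olfm4, where 2.81% of 11705 measured genes were that much lower and 1.24% that much higher. The median log2 ratio over the members was -0.47, beside -0.10 over all measured genes. Lgr5 itself stood at 6.45 CPM in control and 1.41 CPM in cocultured organoids, and 16.2% and 5.64% of cells held a Lgr5 UMI, or 5.56% and 1.197% at 10000 UMIs a cell.

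Olfm4 stood at 156 CPM in control and 68.7 CPM in cocultured organoids, a log2 ratio of -1.19 [-1.23 to -1.14], and was seen in 22.7% and 15.1% of thinned cells. Gkn3 stood at 3.12 and 0.578 CPM, a log2 ratio of -2.43 [-2.91 to -1.97]. A single control cell held 23.7% of the Gkn3 UMIs, and without the top cell of each library the ratio was -2.15. Prom1 stood at 74.98 and 42.3 CPM (-0.82) and Axin2 at 40.9 and 24.2 CPM (-0.76). Ratios between -0.48 and -0.21 were found for Rgmb (33.0 and 23.7 CPM), Cdca7 (70.7 and 51.2 CPM), Lrig1 (25.3 and 18.7 CPM), Ascl2 (15.5 and 12.3 CPM) and Smoc2 (173 and 149 CPM). Relative to the shift of all genes, Smoc2 was -0.11, and as a ratio of mean per-cell CPM it was 0.00097. Hopx, at 300.5 and 353 CPM (0.23), was the member higher in coculture.

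The lower Olfm4 was found on both sides of the Lgr5 call and was wider among Lgr5-positive cells, at 297 and 79.7 CPM (-1.90 [-2.02 to -1.77]), than among the others, at 113 and 67.8 CPM (-0.74 [-0.79 to -0.68]). The Olfm4 UMIs of Lgr5-positive cells were concentrated in few of them: 7 of 87 in control and 5 of 58 in coculture held 50% or more. An Olfm4 UMI was seen in 71.3% and 60.3% of unthinned Lgr5-positive cells, and in 43.7% and 29.8% at 10000 UMIs a cell. Axin2 gave -0.88 in Lgr5-positive and -0.40 in other cells, and Cdca7 -0.78 and -0.23. Prom1 was nearly the same in both, at -0.81 and -0.76. Ascl2 changed direction, with 33.7 and 22.0 CPM in Lgr5-positive cells (-0.61 [-0.89 to -0.34]) and 9.82 and 11.5 CPM in the others (0.22 [0.04 to 0.41]). These are differences between 2 libraries, and the libraries and the culture conditions cannot be told apart.

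**Figure D4:**
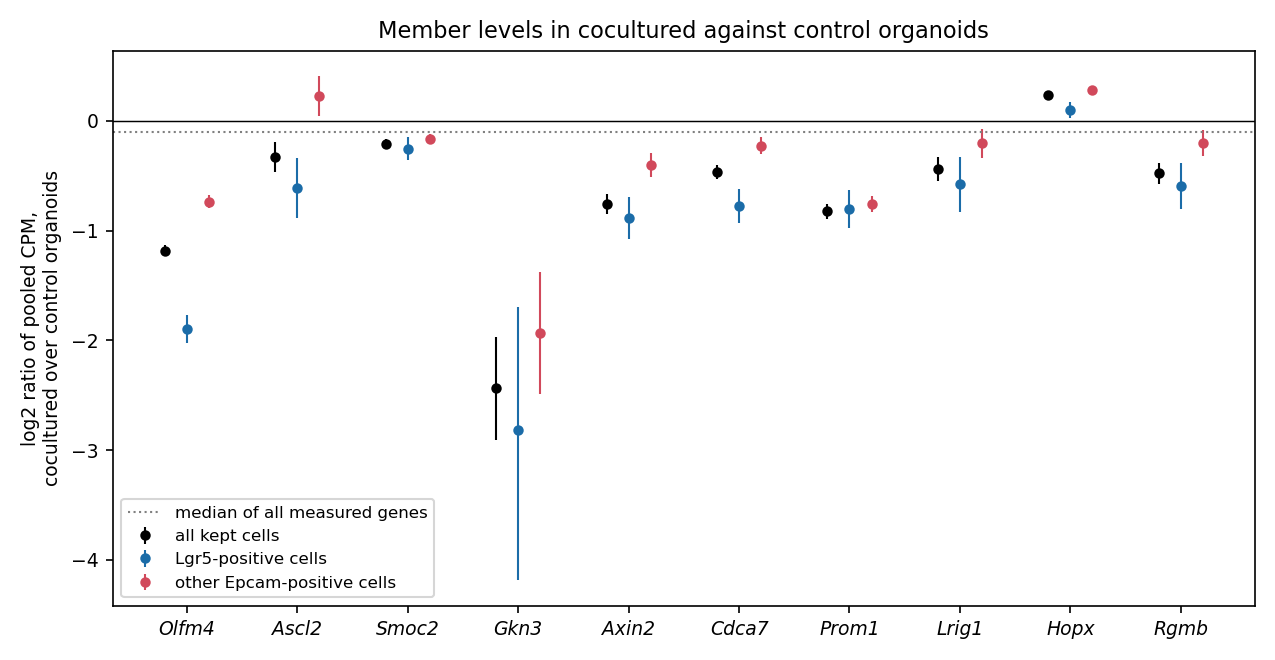
Log2 ratio of pooled CPM in cocultured over control organoids (y axis) for each member (x axis), over all kept cells, Lgr5-positive cells and other Epcam-positive cells, with 95% counting intervals and the median of all measured genes as a dotted line. Olfm4 and Gkn3 lie lowest, at -1.19 and -2.43 over all cells, and Hopx is the member above 0.

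In the Visium sections the tissues differed in which members they held. Of the 9 members measured, 5 were at least 1 log2 unit apart with sections that did not overlap, where 27% of 14252 measured genes were. In sections, fewer cells of a type and less RNA per cell cannot be told apart. Olfm4 stood at 299 and 186 CPM in small intestine sections 1 and 2, and gave 0 and 4 UMIs in the large intestine sections. Axin2 stood at 36.8 and 40.8 CPM in small and 12.6 and 12.7 CPM in large intestine (log2 ratio 1.61), and Smoc2 at 60.9 and 66.2 against 20.1 and 22.7 CPM (1.57). Ascl2 went the other way, at 2.59 and 2.16 CPM in small and 6.28 and 7.05 CPM in large intestine (-1.49), as did Lrig1, at 24.4 and 22.1 against 52.8 and 47.3 CPM (-1.10). Scaled to the UMIs of 5 epithelial genes instead of all UMIs, Ascl2 stood at -0.89 and Lrig1 at -0.51, both under 1 log2 unit, while Axin2 stood at 2.22 and Smoc2 at 2.18. Counting intervals of the 2 sections of a tissue overlapped for each of these except Olfm4 in small intestine and Lrig1 in large intestine.

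Smaller differences were found for Rgmb (66.3 and 87.2 against 42.9 and 41.2 CPM, log2 ratio 0.87), Cdca7 (21.0 and 14.7 against 31.6 and 31.3 CPM, -0.82), Hopx (47.1 and 42.6 against 61.1 and 60.7 CPM, -0.44) and Prom1 (94.4 and 76.6 against 104 and 104 CPM, -0.28). With the scaling to epithelial genes Prom1 and Hopx turned to 0.31 and 0.16, Rgmb reached 1.48 and Cdca7 stood at -0.23. Gkn3 gave 7 and 12 UMIs in small and 6 and 12 in large intestine, too few to compare. Ascl2 and Cdca7 were thus higher in the large intestine per UMI of the section, by less when scaled to epithelial genes, while the Lgr5-positive single cells of small and large intestine held Ascl2 at 57.4 and 66.3 CPM and Cdca7 at 157 and 126 CPM.

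**Figure D5:**
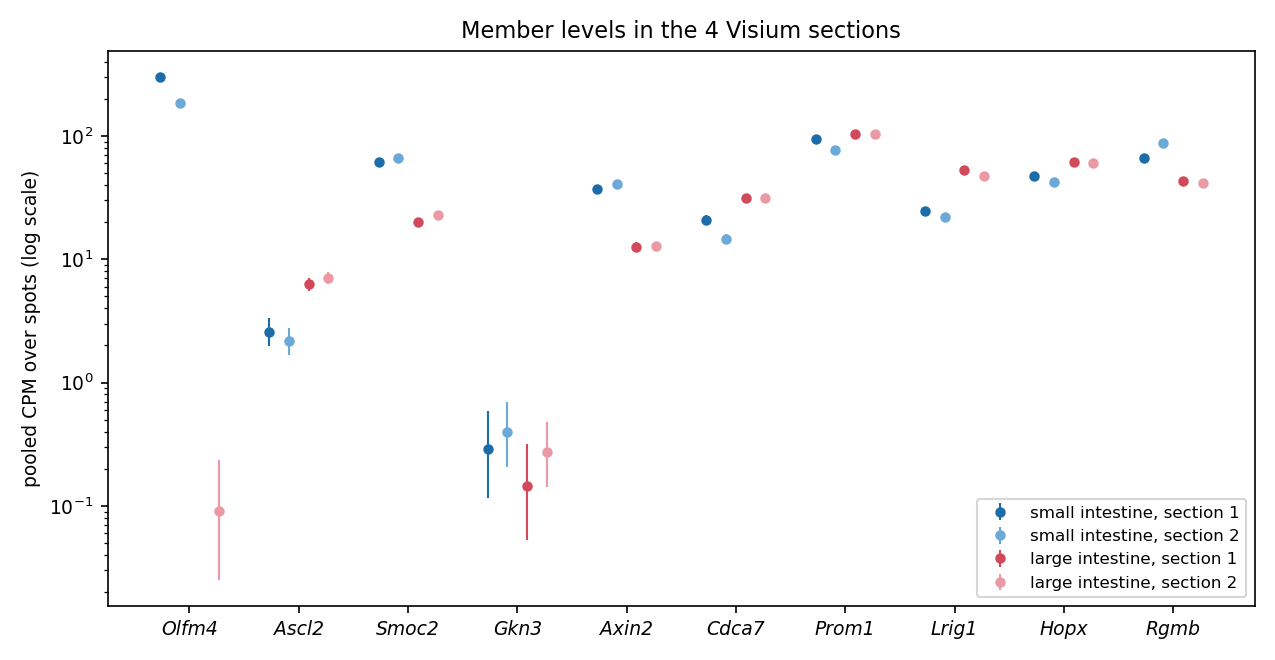
Pooled CPM over the spots of each Visium section (y axis, log scale) for each member (x axis), with 95% counting intervals; blue points are small and red points large intestine. Olfm4 stands at 299 and 186 CPM in small intestine, with its 0 UMIs of large intestine section 1 not drawn, and Ascl2 and Lrig1 are higher in both large intestine sections.

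Muscle was sampled unevenly by the sections, and some members moved with it. The summed level of 5 muscle genes was 6726 and 9114 CPM in small and 1955 and 1918 CPM in large intestine. Each section's spots were cut into 4 equal groups by their share of muscle UMIs. In the group richest in muscle against the poorest, Smoc2 was 3.25 and 4.06 log2 units higher in the small intestine sections and 2.45 and 2.41 in the large. Rgmb was 2.35 and 2.96, and 1.55 and 1.54, higher. Lrig1 was 2.22 and 2.90, and 0.98 and 0.95, higher. Ascl2 was higher too, by 1.68 and 1.15 in the small and 1.91 and 1.37 in the large intestine sections, though the interval of the 1.15 held 0. Cdca7 (0.48 to 0.95) and Hopx (0.29 to 0.54) were higher in all 4 sections, and Olfm4 was by 0.82 and 0.95 in the small intestine ones. These members were thus higher where the epithelial gene Epcam was lower, since Epcam gave log2 ratios between -2.43 and -0.92 in the 4 sections. Lgr5 itself gave 0.02 and -0.22 in the small and 2.49 and 2.84 in the large intestine sections. Prom1 went with Epcam, at -1.33 to -0.64. Axin2 gave -0.47 and -0.98 in the small and 1.58 and 1.24 in the large intestine sections. Within the group poorest in muscle, the difference between tissues was 0.61 for Smoc2, 0.13 for Rgmb, 2.34 for Axin2, -2.07 for Ascl2 and -1.98 for Lrig1. As a point value it was smaller there for Smoc2 and Rgmb and larger for the other 3, with no interval computed. The Ascl2 value rests on low levels, 0.81 and 0.85 CPM in the small intestine sections, and is not read as a larger difference. This grouping by muscle was chosen after the values were seen.

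Spots holding a Lgr5 UMI also held more Olfm4. With every spot thinned to 2000 UMIs, 48 and 40 spots of the small intestine sections held Lgr5. In section 1, Olfm4 gave 190 UMIs per 100 of these spots and 66.0 per 100 of the others, a log2 ratio of 1.52 [1.199 to 1.83], and in section 2 it gave 135 and 51.3, a log2 ratio of 1.40 [0.98 to 1.79]. It was the 1 member of 6 measured that reached 1 log2 unit in both sections, where 0.173% of 4045 genes did. Hopx reached 1.04 in section 1 and 0.15 in section 2. In large intestine, with 14 and 7 such spots, 0 members could be measured; 0.308% of 650 genes passed. With Lgr5 called from all UMIs of a spot, 94 and 89 large intestine spots held it, and Hopx stood at 1.09 and 1.25 there. Lrig1 stood at 1.30 and 0.79 [-0.08 to 1.54] and Smoc2 at 0.93 [-0.17 to 1.86] and 1.22, each with an interval that held 0 in 1 section.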

How the data were processed

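RNA was counted in 4 single-cell and 4 Visium libraries. The deposited matrices hold the authors' counts of UMIs per gene and barcode, with no normalization. Per the file headers they came from Cell Ranger 6.0.1 (single cells) and Space Ranger 1.2.1 (sections), and the submitters' processing notes name build mm10. Spot positions were not used here.

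Barcodes under 500 detected genes or over 20% mitochondrial UMIs were dropped, as were the top Scrublet scores (scanpy 1.11.5), a share of 0.8% for each 1000 cells in the library. Spots under 500 UMIs were dropped. Counts were summed per group and given as CPM with exact Poisson intervals. Log2 ratios carry exact conditional intervals for Poisson counts and shares of cells exact Clopper-Pearson intervals, and a share of 0 is given with the limit of 3 counts of the total. Ratios use a floor of 3 counts per group. UMIs mark molecules, but cells of a library are not replicates, so intervals cover counting error only. Genes with at least 100 UMIs over both groups, and at least 3 expected in the smaller group, count as measured; the latter was added after the data were seen. Shares of cells were taken after thinning to 5000 (tissue), 10000 (organoids) or 2000 UMIs (spots, and comparisons with leukocytes). Thinning seed 1 was used first and gave a low Lgr5 share in control organoids; the seed was then changed to 0, and seeds 1 to 4 were run as alternatives. Against the mean over all possible draws, member shares were off by at most 6.13 points with seed 0 and 9.63 with seed 1.

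Each tissue library was clustered without the members and Lgr5 (2000 variable genes, 30 components, 15 neighbours, Leiden at resolution 1 with leidenalg 0.10.2) and classes were named by fixed marker lists, with the ending "-like". A small intestinal cluster that met the colonocyte rule was left unnamed because Clca4a, Fabp6 and Slc10a2 led it. Classes of at least 20 cells were compared.

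The members and lists were chosen with earlier results of these data known. Named besides the members are the 5 highest genes of each tissue contrast, the 2 genes most like a member, and up to 4 highest and 2 lowest of the other stem genes. The muscle split, the cycling split of the Lgr5 contrast in organoids, the values within classes and the members per cell were added after the data were seen. Alternatives changed the Lgr5 call, cell filter, scaling, thinning and cluster resolution. The ratio calculation was tested on simulated data. Start regions came from RefSeq.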

Additional observations from a re-analysis of the deposited data

Results flagged for a closer look

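Ascl2 was lower in cocultured than in control organoids among Lgr5-positive cells (log2 ratio -0.61) and higher among the other epithelial cells (0.22). The difference was not tested.

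Axin2 was lower in muscle-rich than in muscle-poor spots of both small intestine sections (-0.47 and -0.98) and higher in both large intestine sections (1.58 and 1.24). Both sections of a tissue are technical duplicates, and the difference was not tested.

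The tissue matrices carry added reporter features that no member comparison above used as its main call. The feature GFP-PLUS had a UMI in 19.0% [14.8 to 23.8] of Lgr5-positive and 2.26% [1.57 to 3.14] of other epithelial cells of small intestine, and in 60.1% [56.8 to 63.3] and 8.23% [7.40 to 9.11] of those of large intestine. It had none in 409 and 248 leukocytes, which allows shares of up to 0.733% and 1.21%. What sequence the feature stands for is not given in the sources used here.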

How the results depend on the processing

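Small intestinal tissue kept 9 or 10 of 10 members under all its alternatives except inside the stem-like class, where 2 passed. Large intestinal tissue (6 of 8) had between 4 and 7 except 3 among cells with Mki67 or Top2a under 2 of the thinning draws and 0 inside the Dlgap1 class; both exceptions, and all values for seeds 1 to 4 and within classes, were chosen after seeing the data. Control organoids (5) gave 0 with Lgr5 called on thinned cells under seed 0 and 3 under seeds 3 and 4, and 1 among cells with Mki67 or Top2a under each of the 5 draws; 13 and 19 cells were too few for seed 1 and, without Mki67 or Top2a, seed 3. Cocultured organoids (0) gave 5, 4 and 4 among cells without Mki67 or Top2a under seeds 0, 2 and 3 (seeds 1 and 4 were not run, with 16 and 18 cells), 2 with Lgr5 at 2 UMIs or as the mean of per-cell CPM, and 1 with the loose cell filter or without mitochondrial and ribosomal protein genes; thinned calls were not run with 10 to 13 cells, nor was the call by GFP-MINUS in tissue, with 4 and 13 cells. The 2 members at least 1 log2 unit lower in coculture became 1 in Lgr5-positive cells alone, in other cells alone and, under seeds 0, 2, 3 and 4, in cells without Mki67 or Top2a. Large intestine spots (0) gave 1 when thinned to 5000 UMIs or called from all UMIs. Members highest in the large intestinal class with the highest Lgr5 (1) were 3 at resolution 2 and 0 with the loose filter; that class was tuft-like with the loose filter and at resolution 0.5 (1 member). Between Visium tissues, leaving out a section gave 5 to 7.

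Of 1093 recomputed member ratios, 487 stayed within the interval of the main ratio and 575 moved outside it. For the Visium tissues this interval came from the spread between sections. Sign changes of ratios whose main interval held 0 were not counted as changes of direction. The remaining 31 ratios changed direction. In control organoids on thinned cells, Smoc2 gave -0.14 (seed 4) and Hopx -0.020 (seed 3). Among control organoid cells with Mki67 or Top2a, Smoc2 gave -0.0073, -0.012, -0.013 and -0.0071 (seeds 0 to 3) and Hopx -0.0020, -0.0041, -0.055 and -0.0040 (seeds 0, 1, 3 and 4). Among such cocultured cells, seeds 0 to 4 gave Olfm4 -0.19, -0.37, -0.18, -0.16 and -0.32 and Cdca7 -0.14, -0.18, -0.072, -0.090 and -0.11. For coculture against control, cells without Mki67 or Top2a gave Ascl2 0.32 and 0.030 (seeds 0 and 2), Smoc2 0.093, 0.061, 0.0058 and 0.026 (seeds 0, 2, 3 and 4) and Lrig1 0.017 (seed 3), other cells alone gave Ascl2 0.22, and per-cell means gave Smoc2 0.00097. Scaling to epithelial genes gave Prom1 0.31 and Hopx 0.16 in Visium. The cause was not tested. No paired analysis was possible because sections 1 and 2 are technical duplicates within a tissue and no test was made.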
